A study of Schizosaccharomyces pombe with 4 samples.

Results

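Ser5P polymerase II intervals were described here on chromosome III of the fission yeast Schizosaccharomyces pombe, outside a stretch of 185297 bp (506350 to 691646) whose covered length was 5782 bp in wild type against 11851 bp in the abp1Δ strain. All intervals of that chromosome that did not overlap the stretch were taken, each list separately. They numbered 454 of 3242 in the wild-type list and 322 of 2851 in the abp1Δ list. The stretch had been chosen for its difference between these same lists, and the intervals outside it are what that choice left. Values below are therefore descriptions, and no test was made.

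Chromatin was immunoprecipitated from wild-type cells and from cells with abp1 deleted (labelled ABP1d, in the title of its ChIP sample APB1d), both growing exponentially in the rich medium YES. Fixation in both used 1% formaldehyde (15 min, stopped by 125 mM glycine), shearing gave 250 to 400 bp, and libraries were made with a kit meant for RNA. The labels give 1 ChIP and 1 input sample for each genotype, so there is no replicate; the inputs were not analysed here. How abp1 was removed, and in which strain background, was not given in the sources used here. Abp1's own gene (SPBC1105.04c, symbol cbp1 in the annotation used) had no interval in either list, so the lists do not check the genotype labels.

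RNA polymerase II carries a tail of repeated heptapeptides, and phosphorylation of the serine at the fifth position marks polymerase from initiation into early elongation. Abp1 is a DNA-binding protein related to the human centromere protein CENP-B. Chromosome III is the smallest fission yeast chromosome. Its ends carry the tandem ribosomal DNA, which RNA polymerase I transcribes, and its centromere consists of a central core flanked by repeats packaged in heterochromatin and dotted with tRNA genes, which RNA polymerase III transcribes.

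The measurement was the number of bases covered by intervals. Each deposited interval has a score of 200 or more whose unit is not stated, so covered length counts bases above that level and depends on read depth and scaling, which are unknown. Scores were used only to rank intervals within a list. Depth being unknown, no limit could be set for genes without an interval. Positions are 1-based and read on assembly ASM294v3; the files name no build.

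Covered sequence is shown for tpx1, all of whose wild-type coverage falls within these 40 bases, and for bfr1, where the first wild-type interval past the stretch is 40 bases wide. Capitals mark bases covered in wild type. In abp1Δ all 40 bases of tpx1 were covered and none of bfr1. Both lie in coding sequence and are read 5′ to 3′ along the gene from the RefSeq assembly ASM294v3.
tpx1 (chr3:2085164-2085203, minus strand): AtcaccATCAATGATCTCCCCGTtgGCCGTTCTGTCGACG
bfr1 (chr3:710391-710430, minus strand): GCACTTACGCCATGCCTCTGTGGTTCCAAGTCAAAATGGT

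The sequence before the start is shown for fil1, pil1 and amt1, with the 3 largest gains of covered bp, and for ole1, whose difference lay at its start. Each is the 250 bases before the annotated start, 5′ to 3′ along the gene, from the RefSeq assembly ASM294v3. Capitals mark matches on either strand to the motifs searched. These were the HomolD box CAGTCACA and the related HomolE-like motif CCCTACCCT, both known from ribosomal protein promoters. The TATA box was searched as TATAAA. For the CRE core, bound by stress-responsive factors, the letters were TGACGT. The box known from histone gene promoters was searched as AACCCT, which shares letters with the HomolE-like motif but is not contained in it. A GATA-type motif, GATAAG, was added after the values were seen.
fil1 (chr3:811440-811689, plus strand): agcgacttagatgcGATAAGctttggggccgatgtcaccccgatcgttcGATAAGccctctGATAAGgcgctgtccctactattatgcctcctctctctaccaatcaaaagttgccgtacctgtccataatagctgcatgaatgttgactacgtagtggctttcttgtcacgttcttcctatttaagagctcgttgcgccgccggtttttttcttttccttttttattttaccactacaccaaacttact
pil1 (chr3:348309-348558, plus strand): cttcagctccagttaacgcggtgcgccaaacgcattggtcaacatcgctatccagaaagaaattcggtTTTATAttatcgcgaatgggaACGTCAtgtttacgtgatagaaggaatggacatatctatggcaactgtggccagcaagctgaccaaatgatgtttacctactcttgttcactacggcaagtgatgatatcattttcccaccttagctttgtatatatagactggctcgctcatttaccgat
amt1 (chr3:2068729-2068978, plus strand): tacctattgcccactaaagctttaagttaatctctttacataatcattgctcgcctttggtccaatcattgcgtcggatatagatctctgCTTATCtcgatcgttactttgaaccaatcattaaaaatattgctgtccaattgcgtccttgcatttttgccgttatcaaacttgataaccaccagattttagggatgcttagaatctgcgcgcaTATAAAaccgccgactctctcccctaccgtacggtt
ole1 (chr3:1394877-1395126, minus strand): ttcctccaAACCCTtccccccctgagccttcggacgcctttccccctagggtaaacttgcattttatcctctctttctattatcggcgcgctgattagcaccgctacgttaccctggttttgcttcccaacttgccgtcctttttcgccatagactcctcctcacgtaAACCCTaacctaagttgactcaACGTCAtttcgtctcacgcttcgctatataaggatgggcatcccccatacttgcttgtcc

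Outside the stretch, intervals took up 33553 bp of chromosome III in wild type. In abp1Δ they took up 40170 bp. Of the 2267586 bp there, 1.48% and 1.77% were thus covered. The difference was 6617 bp, an excess of 19.7% over wild type. Chromosome I had 115273 and 121864 bp, an excess of 5.72%, and chromosome II 72805 and 75895 bp, an excess of 4.24%. Both lists covered the same 29271 bp, or 87.2% of the wild-type length and 72.9% of that in abp1Δ. Bases in 1 list alone came to 4282 bp in wild type against 10899 bp in abp1Δ.

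The abp1Δ list held fewer but longer intervals. The median width was 4 bp in wild type against 5 bp in abp1Δ, and covered runs were broken into short pieces in both. Pieces of 1 bp made up 32.4% of wild-type and 25.8% of abp1Δ intervals. Intervals of 300 bp or more numbered 26 and 29 and carried 25514 and 33046 bp, most of the covered length. When pieces no more than 100 bp apart were joined, wild type had 73 regions and abp1Δ 70, and 53 and 49 of these overlapped one of the other list. Regions that overlapped none had a median highest score of 214 (wild type) and 235 (abp1Δ), and those that did 384 and 419.

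The intervals lay in a few gene neighbourhoods rather than evenly along the chromosome. The most covered 100 kb bin, from 200001 to 300000, held 6505 bp in wild type against 7326 bp in abp1Δ. It contains the hexose transporter genes, the elongation factor gene tef101, the cell surface gene knh3 and the malic enzyme gene mae2. The 5 most covered bins held 63.3% of the wild-type length, and in abp1Δ 58.9%. Of 25 bins, 17 had more covered bp in abp1Δ, 5 had fewer and 3 had no interval in either list.

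**Figure D1:**
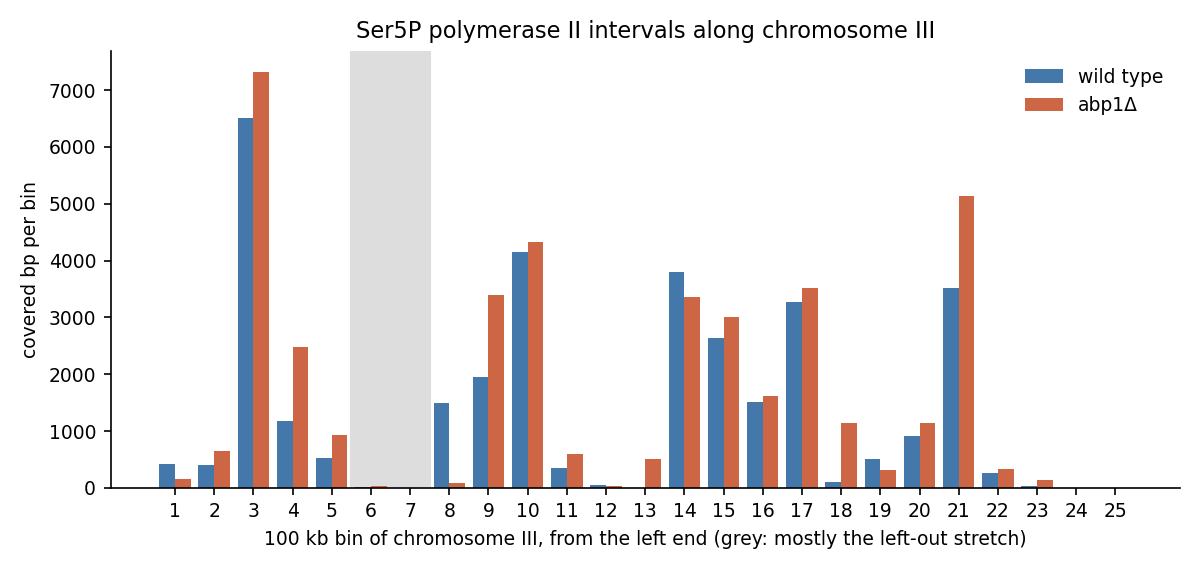
Covered bp in consecutive 100 kb bins of chromosome III (horizontal axis, bin number from the left end; vertical axis, covered bp per bin) for the wild-type and abp1Δ lists, 1 list per genotype. Bin 3 was the most covered in both lists, bin 8 had 1492 bp in wild type against 85 bp in abp1Δ, and grey marks the bins that consist mostly of the left-out stretch.

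The bins that differed most each turned on 1 or a few genes. Bin 21, from 2000001 to 2100000, had 3511 bp in wild type against 5134 bp in abp1Δ and holds amt1 and tpx1. Bin 9, from 800001 to 900000, had 1952 and 3387 bp and holds fil1. Bin 4 had 1179 and 2483 bp and bin 18 had 107 and 1141 bp, with pil1 and with tef5 and SPCC417.16. The opposite direction was largest in bin 8, from 700001 to 800000, with 1492 bp in wild type against 85 bp in abp1Δ, most of it at bfr1. Bin 14 followed with 3799 and 3357 bp and holds ole1.

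Protein-coding genes held 92.4% of the covered bases in both lists. Wholly outside the stretch lie 840 such genes. In wild type 53 of them carried an interval (7.18% of all protein-coding genes did), and in abp1Δ 56 (7.12% of all). The lists shared 48 of these genes, 5 had an interval in wild type alone (0.939% of all genes) and 8 in abp1Δ alone (0.880% of all). Beside bfr1, the genes with intervals in wild type alone had only 8 bp (SPCC306.11), 10 bp (mpg1), 16 bp (rpl3702) and 21 bp (rps1702). Those with intervals in abp1Δ alone were amt1, fyu1, SPCC417.16, SPCC1259.08, SPCC1235.01 and toa2, described below, SPCC417.15 with 92 bp and aah1 with 30 bp. Together 61 genes carried intervals: 33 were covered over more bp in abp1Δ (54.4% of all such genes in the genome) and 27 over fewer (43.4%). A gain of at least 100 bp was seen at 21 of the 840 genes, or 2.50% (95% Wilson interval 1.64 to 3.79%), against 2.07% of all protein-coding genes. A loss of that size was seen at 9, or 1.07% (0.565 to 2.02%), against 1.51% of all. The shares of all genes include these 840 and the left-out stretch. On chromosomes I and II alone they were 1.69% for a gain and 1.62% for a loss. The Wilson intervals take in counting error alone and treat genes as independent, which neighbours are not. Over all 61 genes, whatever the size, the positive differences summed to 9747 bp and the negative ones to 3406 bp, with overlapping genes counted each.

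The excess rested on few genes. Without fil1 the difference between lists was 5287 bp, and without fil1 and pil1 it was 4259 bp. Leaving out the 12 genes with the largest gain turned it to -720 bp, and leaving out the 13 with the largest loss as well gave 2270 bp. Both sets were chosen by the difference itself. The median gene length was 2326 bp for the 12 and 865 bp for the 13, against 1849 bp for all 840. Over the 61 genes with an interval it was 1562 bp. Median GC content was 40.3% in both sets, near the 40.5% of the 61 genes, and 37.1% over all 840.

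**Figure D2:**
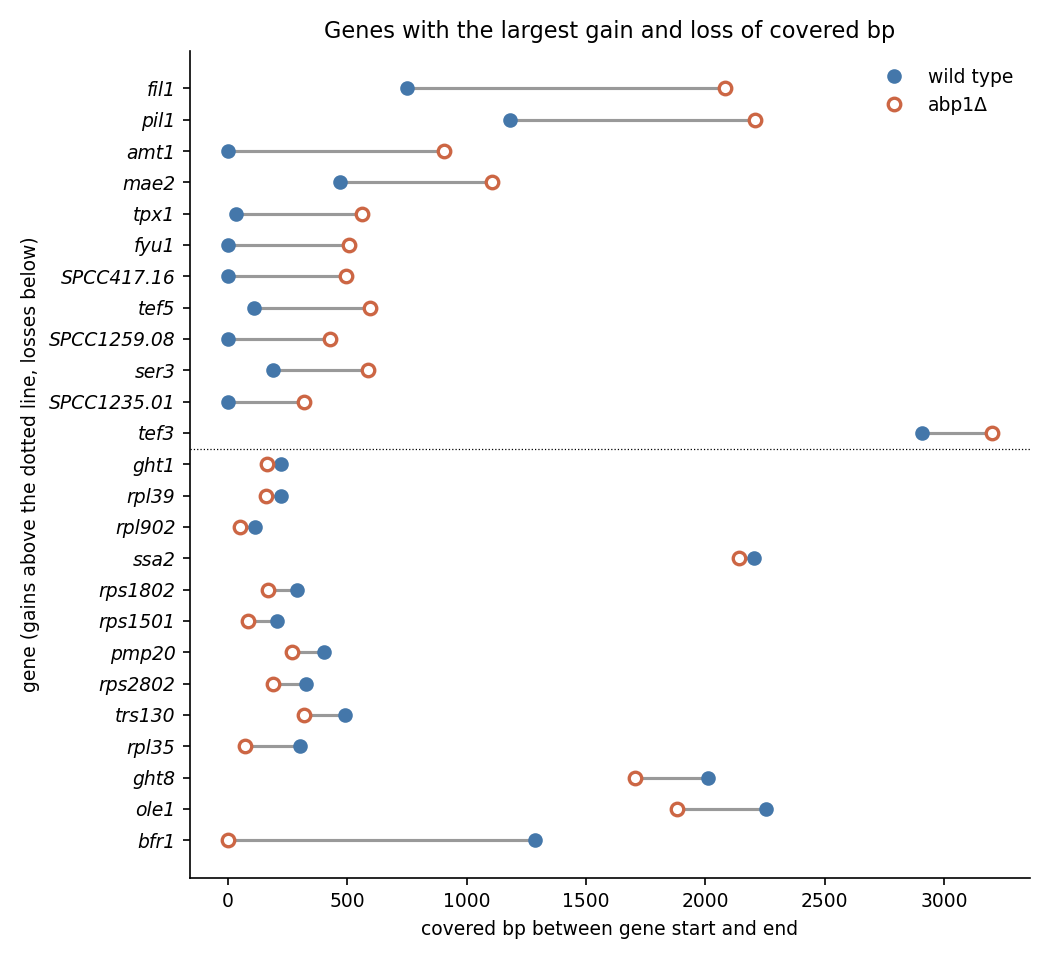
Covered bp between annotated gene start and end (horizontal axis) in wild type (filled) and abp1Δ (open) for the 12 genes with the largest gain and the 13 with the largest loss, 1 list per genotype. Among the gains fil1 leads with 750 and 2080 bp, and among the losses bfr1 with 1286 and 0 bp.

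The largest gain was at fil1 (SPCC1393.08, chr3:811690-814708), which encodes a GATA-type zinc finger transcription factor that activates amino acid synthesis genes. It had 750 covered bp in wild type against 2080 bp in abp1Δ, or 24.8% and 68.9% of the gene. Wild type had 24 pieces, between 702 and 1953 bp from the start. In abp1Δ 5 pieces reached from 466 to 2689 bp, and 1 of them was 2058 bp wide. The coding sequence begins 965 bp from the annotated start, so the first pieces of both lists lie in the leader.

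The ammonium transporter gene amt1 (SPCPB1C11.01, chr3:2068979-2071707) had no interval in wild type, where the nearest one lay 9689 bp away. In abp1Δ it had 905 covered bp in 10 pieces, from 914 to 1859 bp past the start and so within the coding sequence, which begins at 827 bp. The serine synthesis gene ser3 (SPCC364.07), for phosphoglycerate dehydrogenase, had 190 bp in wild type against 584 bp in abp1Δ. None of the 6 genes on the list of amino acid, sulfur and nucleotide synthesis that lie here had an interval in either list; ser3 was not on that list.

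The second largest gain was at pil1, at the cell membrane. The gene pil1 (SPCC736.15, chr3:348559-351165) encodes the core protein of eisosomes, the furrows of the plasma membrane. It had 1179 covered bp in 36 pieces in wild type and 2207 bp in 7 pieces in abp1Δ, and all 1179 bp were also covered in abp1Δ. The malic enzyme gene mae2 (SPCC794.12c) had 470 and 1106 bp. The gene fyu1 (SPCC1322.04), annotated as a uridylyltransferase that makes UDP-glucose, had none in wild type and 505 bp in abp1Δ, in 20 pieces with a highest score of 246.

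Gains also lay at a redox gene and at translation factor genes. The peroxiredoxin gene tpx1 (SPCC576.03c, chr3:2084942-2085719) had 33 bp in wild type against 561 bp in abp1Δ, or 4.24% and 72.1% of the gene. Its 3 wild-type pieces fell within 40 bp of coding sequence, all inside a single abp1Δ interval. The exchange factor gene tef5 (SPCC1450.04) had 107 and 593 bp, and the fungal elongation factor 3 gene tef3 (SPCC417.08) had 2909 and 3199 bp. The uncharacterized genes SPCC1259.08 and SPCC1235.01 and the gene SPCC417.16, annotated as a subunit of NADH:ubiquinone reductase, had no interval in wild type and 426, 316 and 493 bp in abp1Δ.

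**Figure D3:**
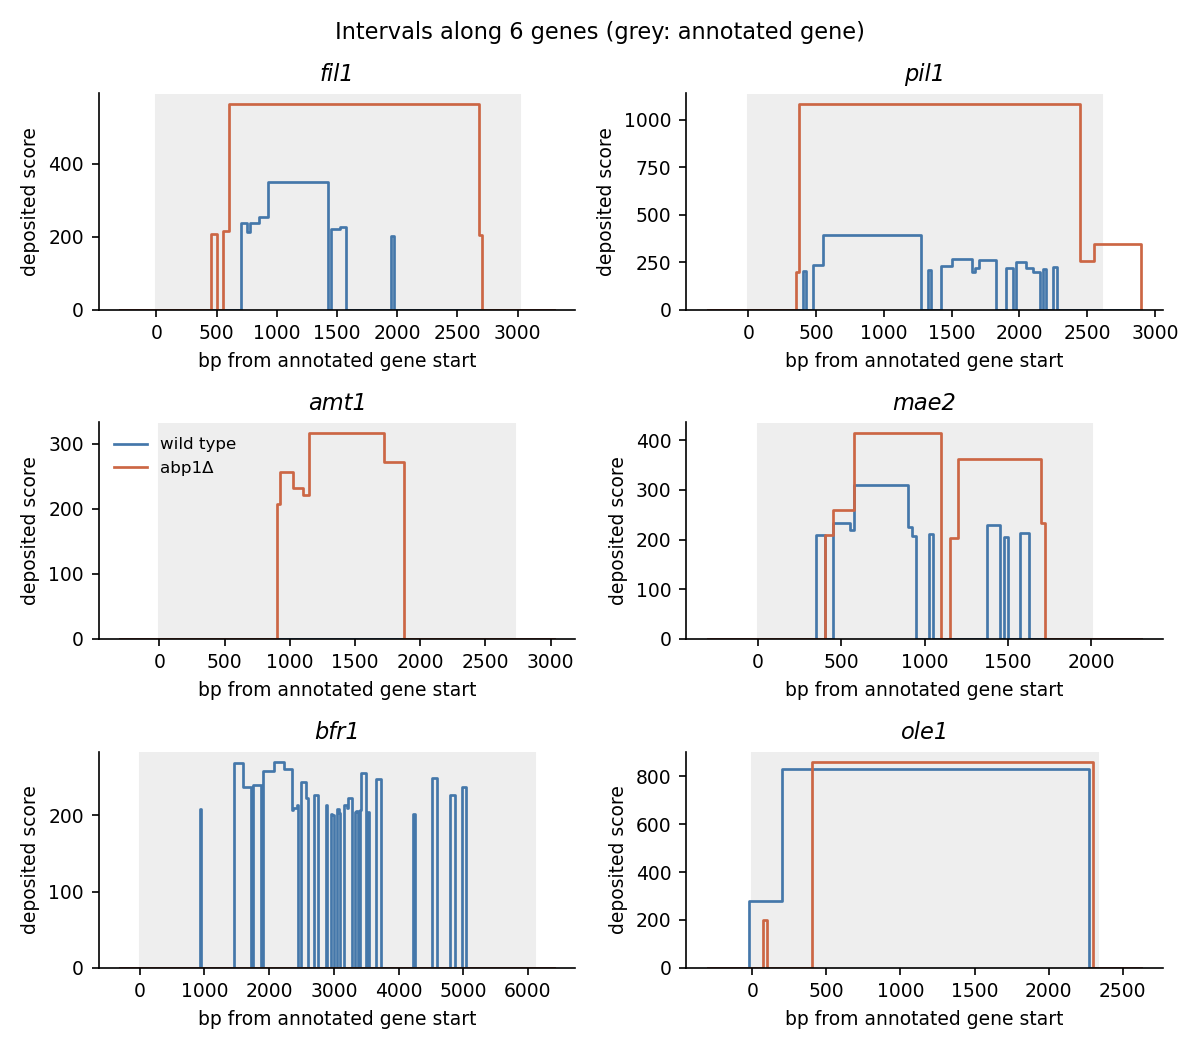
Deposited score of the intervals (vertical axis, unit not stated) in 25 bp steps against the distance from the annotated gene start (horizontal axis, bp) for fil1, pil1, amt1, mae2, bfr1 and ole1, 1 list per genotype; the grey field is the gene. At fil1 and pil1 the many wild-type pieces lie under 1 wide abp1Δ interval, amt1 has intervals in abp1Δ alone and bfr1 in wild type alone, and heights of the 2 lists are not on a known common scale.

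Wild-type intervals lay in 7 of the 12 genes with the largest gain, and in 5 of the 7 all their bases were also covered in abp1Δ. The exceptions were mae2, with 454 of 470 bp, and ser3, with 130 of 190 bp. For the losses, 12 of the 13 genes had an interval in abp1Δ, and 97.7% of their 7196 covered bp were also covered in wild type. Both sets were chosen by the difference, which favours such overlap. Over all intervals here the shared bases were 87.2% of the wild-type length and 72.9% of that in abp1Δ. Among the 12 genes, 31.0% of the wild-type covered bases lay in the first of 3 equal segments of the gene, and 19.4% of the abp1Δ ones. Over all 61 genes the first segment held 25.3% and 20.6%, and the last 31.3% and 35.4%.

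The largest loss was at a transporter gene. The drug efflux transporter gene bfr1 (SPCC18B5.01c, chr3:709302-715418) had 1286 covered bp in 59 pieces in wild type, none wider than 165 bp and with a highest score of 270. It had none in abp1Δ, where the nearest interval lay 83250 bp away. The fatty acid desaturase gene ole1 (SPCC1281.06c, chr3:1392544-1394876) had 2253 and 1882 bp, and the loss lay in the first of 3 equal segments, with 775 bp in wild type against 365 bp in abp1Δ. In the rest of ole1 the lists were close, with 778 bp in each list in the middle segment and 700 and 739 bp in the last.

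The 4 hexose transporter genes here, ght1, ght5, ght6 and ght8, import glucose and related sugars and all had fewer covered bp in abp1Δ. The values were 2009 bp in wild type against 1706 bp in abp1Δ for ght8 (SPCC548.06c), 736 and 678 bp for ght5, 223 and 162 bp for ght1 and 107 and 92 bp for ght6. They share sequence, so their values are not independent of each other. In abp1Δ each had the same highest score, 419, and in wild type the scores were 617, 613, 508 and 498. A run of 66 bases is identical in the 4 genes, at chr3:213464-213529 in ght5 and chr3:227184-227249 in ght8. It was covered whole in both lists in ght5 and ght8, over 55 bp (wild type) and 46 bp (abp1Δ) in ght6 and over 49 and 38 bp in ght1. The printed run is from the RefSeq assembly ASM294v3, in the direction of the genes, and no capitals are marked.
ght1, ght5, ght6 and ght8 (shared run): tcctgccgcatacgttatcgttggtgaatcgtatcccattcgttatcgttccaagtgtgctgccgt

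Repeated sequence was rare at the other covered genes. Of the 61 genes with an interval, 51 had no 50-mer found elsewhere in the genome and 3 had over 10% of theirs repeated: tef101 with 65.6%, ght5 with 29.6% and ght8 with 24.7%. The score of tef101 was the highest of both lists at 2503 and 4092, and tef102 and tef103 on chromosomes I and II tied with it. That score is uncertain, since reads of such copies could be split or lost. The intervals of tef101 covered 1468 and 1532 bp. The highest repeat share among the 12 genes with the largest gain was 3.17%.

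Of the lists of protein-coding genes, that of ribosomal proteins had the most covered members. Of 20 such genes 17 were covered in wild type and 15 in abp1Δ; 7 of these 17 were covered over more bp in abp1Δ and 10 over fewer. Their summed length was nearly level, at 4681 and 4701 bp, and their median difference was -16 bp, against 10 bp over all genes with an interval in the genome. Losses of at least 100 bp occurred at rpl35, with 301 bp in wild type against 72 bp in abp1Δ, at rps2802 with 325 and 190 bp, at rps1501 with 206 and 83 bp and at rps1802 with 290 and 168 bp. The interval at rps2802 lies inside the vesicle tethering gene trs130, which therefore counts as a loss too, with 490 and 317 bp. Among the 117 ribosomal protein genes of chromosomes I and II, 41 had more covered bp in abp1Δ and 54 fewer. There 20 lost and 10 gained at least 100 bp.

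On chromosome III, gains of at least 100 bp among ribosomal protein genes occurred at rpl6 (462 and 737 bp), the stalk protein gene rpp0 (901 and 1121 bp) and rps2 (700 and 838 bp). The gene str2 contains rpl6 and owes its count to it. Gains of that size also lay at gene ends that overlap a neighbour. At toa2 the 289 bp in abp1Δ alone were at its end next to knh3, and 33 of them lay in both genes. At efr3, with 100 and 259 bp, 52 of the abp1Δ bases lay in tef101 as well, and the widest abp1Δ interval ran through both genes.

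The remaining lists were small here. Of 5 translation factor genes 3 had intervals, all with more bp in abp1Δ, and 2 gained at least 100 bp. On chromosomes I and II 11 of 44 such genes had intervals, 7 with more bp in abp1Δ and 3 with fewer. Only 1 of the 44 gained at least 100 bp. The alcohol dehydrogenase gene adh1 had 1432 and 1531 bp and the triose phosphate isomerase gene tpi1 881 and 838 bp. The histone genes hta1 and htb1, for H2A and H2B, had 731 and 705 bp and 1263 and 1261 bp. On chromosomes I and II, 7 of 9 histone genes had intervals, with 3755 bp in wild type against 2202 bp in abp1Δ. Of these 7, 1 had more bp in abp1Δ and 6 had fewer, and 5 lost at least 100 bp. On chromosome III the Hsp70 gene ssa2 had 2204 and 2140 bp. Of 5 redox and stress genes the peroxiredoxin-family gene pmp20 had 401 bp in wild type against 267 bp in abp1Δ, opposite to tpx1. The list of 41 transporter genes went by that word in the annotation, so it holds ght8 but not ght1, ght5 and ght6, which are annotated as symporters. Of the 41, 5 had an interval, 2 of them with a gain of at least 100 bp (amt1, and str2 through rpl6) and 2 with a loss (bfr1 and ght8). The fifth, the copper transporter gene ctr4, was covered over its whole 903 bp in both lists. Of 148 transporter genes on chromosomes I and II, 16 had an interval. At least 100 bp were gained at 4 of these and lost at 8. On the cell surface list of chromosome III, 1 of 5 genes, the glucan synthase gene bgs4, had intervals, of 31 and 130 bp. This list also went by words in the annotation and so missed other covered genes of that kind. These were knh3 with 1394 and 1508 bp, the cell surface gene knh2 with 1078 and 1080 bp, and aah1 with 30 bp in abp1Δ alone.

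Ranks by score within each list told where the leading intervals lay. The order here in wild type was tef101, ssa2, adh1, htb1, ole1, tef3, rps2 and knh3, which held ranks 1, 7, 19, 23, 30, 34, 49 and 53 of the whole list. In abp1Δ it was tef101, ssa2, adh1, pil1, knh3, tef3, rps2 and htb1, with ranks 1, 14, 21, 26, 28, 32, 38 and 39. The first 100 intervals of each whole list included 20 from here in wild type and 15 in abp1Δ. Of all intervals, this part held 14.0% in the wild-type list and 11.3% in the abp1Δ list. The left-out stretch takes part in the same ranking, so these counts also depend on where its intervals rank.

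For genes with an interval in both lists, 319 in the genome, ranks were also taken over the same genes, an addition made after the values were seen. Ranks give an order within each list and no change of signal. The 48 genes here had a median rank of 152 in wild type and 147 in abp1Δ. Of these, 22 stood higher in the abp1Δ order than in the wild-type one and 24 lower, and over all 319 genes 138 stood higher and 173 lower. The 11 genes of the left-out stretch, chosen for their difference, all stood higher. The genes pil1 (152 and 28), tpx1 (295 and 154), tef5 (295 and 185) and fil1 (182 and 94) stood higher in abp1Δ, and ght8 (57 and 162) and ght5 (58 and 162) lower. The rank of efr3 in abp1Δ is that of the tef101 interval, which reaches into it. Other neighbours, such as str2 and rpl6 or sec5 and htb1, had the same highest score in each list, and each was counted. All ght genes here tied at 162 in abp1Δ, so the 48 genes are not independent.

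**Figure D4:**
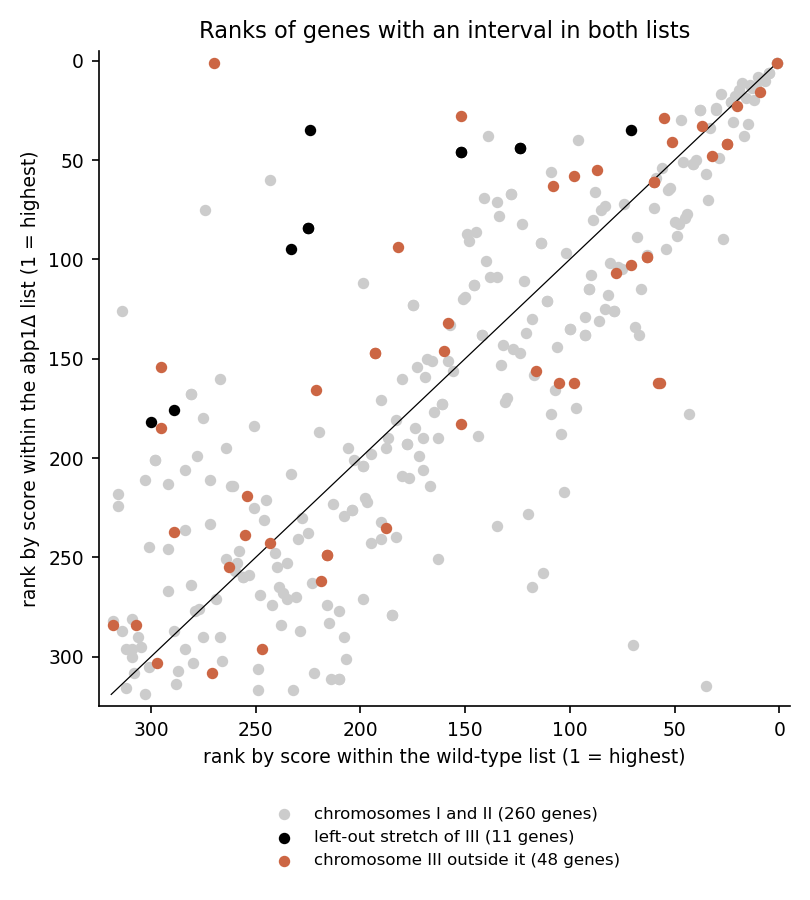
Rank by deposited score within the wild-type list (horizontal axis) and within the abp1Δ list (vertical axis) among the 319 protein-coding genes with an interval in both, with rank 1 at the upper right. The 48 genes of chromosome III outside the stretch lie on both sides of the line of equal rank, 22 above it and 24 below, against 138 above and 173 below over all genes, and the 11 genes of the stretch all lie above it.

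Neither list had an interval at the centromere. The longest sequence without a protein-coding gene runs from 1064444 to 1142615 between meu27 and ppc1, 78172 bp with 21 tRNA genes, and 88.4% of its 50-mers occur more than once in the genome. In wild type the gap around it was 140557 bp, from rps1802 to mam301, and in abp1Δ 124141 bp, from SPCC1259.08 to mam301. Its left border thus lay nearer in abp1Δ, at a gene with no interval in wild type. The order of the gaps turned with the score limit: with abp1Δ intervals kept only from a score of 226, which left its covered length on chromosomes I and II no longer above wild type, the abp1Δ gap was 243265 bp. On the right the first interval lay in mam301 in both lists, with scores of 229 and 206.

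Gaps of this size were not limited to the centromere. Between intervals, so without the chromosome ends and the gap that spans the stretch, 2 other gaps were longer in wild type, of 154504 bp between rpl15 and bgs4 and of 153538 bp between rpl6 and adh1, with 61 and 53 protein-coding genes in them and 3.28% and 2.03% repeated 50-mers. In abp1Δ 3 such gaps were longer than that at the centromere, of 153349, 153277 and 149431 bp.

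The ends of the chromosome, with the ribosomal DNA, had no interval either. From the left end it was 88881 bp to the first interval in wild type, in rpl35, and 73966 bp to that in abp1Δ, in aah1. On the right the last interval lay in bgs4 in both lists, which leaves gaps of 197105 and 197692 bp with 71 protein-coding genes in each. The annotated ribosomal DNA takes up 23130 bp on the left and 11890 bp on the right, and 99.8% and 92.2% of its 50-mers are repeated. The treatment of reads with several matches was not given in the sources used here, so a lack of intervals in these repeats cannot be told apart from a lack of assigned reads.

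Small RNA genes, wtf genes and transposon sequences were free of intervals too. Among the wtf genes are meiotic drivers that kill spores lacking them. None of 46 tRNA genes, 18 rRNA genes, 4 snoRNA genes, 15 wtf genes, 77 long terminal repeats or the Tf2 elements Tf2-12 and Tf2-13 had one in either list. Of all protein-coding genes only 7.18% (wild type) and 7.12% (abp1Δ) had an interval, so absence from the smaller groups says little. Where their sequence is repeated, a lack of intervals cannot be told apart from a lack of assigned reads. Of 1252 long non-coding RNA genes 33 met intervals in wild type and 37 in abp1Δ, but only 14 and 16 had covered bases outside a protein-coding gene. Among the regions clear of protein-coding genes, 1 between ade10 and trm8 at SPNCRNA.477 had 325 covered bp in wild type against 211 bp in abp1Δ, and 1 between pre10 and gms1 at SPNCRNA.7137 had 210 and 192 bp. Regions in abp1Δ alone lay between SPCC794.04c and SPCC794.16, with 58, 15 and 6 bp. A region in wild type alone lay between xlf1 and swt1, with 20 bp.

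The edge of the left-out stretch divided 1 region. Just before it the wild-type list had a piece of 7 bp, 122 bp away, and the abp1Δ list a piece of 26 bp, 156 bp away, beside rpl3601. The first intervals that overlapped the stretch had widths of 9 and 326 bp. That in abp1Δ ran from 506196 to 506521, across the edge, and was left out whole, with its bases before the stretch. Past the right edge the first wild-type interval was that of bfr1, 18745 bp away, and the first abp1Δ one that of rps1501, 107022 bp away.

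In the windows printed above, that of fil1 held 3 GATAAG matches, 236, 201 and 189 bases before the start, and that of amt1 held 1, at 160. Of all 5112 such windows, 10.2% held the motif, as did 2 of the 12 genes with the largest gain and none of the 13 with the largest loss. TATAAA was in 8 of the 12, 3 of the 13 and 44.4% of all windows, and TGACGT in 4, 3 and 5.52%. AACCCT, marked at 242 and 82 bases before the start of ole1, was in 1 of the 12, 4 of the 13 and 8.29% of all windows, and the HomolE-like motif in 1, 1 and 1.49%. The HomolD box was in 1 of the 12, 4 of the 13, 11 of the 17 covered ribosomal protein genes and in 2.62% of all windows. A match describes the letters in the window and not the binding of a factor. No interval covered these windows at fil1, pil1 and amt1, and at ole1 18 bp next to the start were covered in wild type alone.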

How the data were processed

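The deposited data were 2 interval lists without a header, 1 for the ChIP of each genotype, with chromosome, start, end and a whole number taken as the authors' score. Bowtie 0.12.5 is named in the submitters' processing notes. Which caller, build and scaling made the lists, and whether inputs were used, was not given in the sources used here. This deposited score has no stated unit, and its lowest value was 200 in both lists.

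Coordinates were compared with ASM294v3 and its RefSeq annotation. The share of covered bases in protein-coding genes was 92.4% in both lists as deposited and at most 77.8% (wild type) and 82.3% (abp1Δ) after a shift of 1000 to 10000 bp, so they were used with this annotation. Covered bp are the union of intervals, and a gene runs from annotated start to end. Genes named are the 12 with the largest gain and loss of covered bp (13 for loss, with a tie), the 8 highest by score in each list, up to 4 members of each gene list, and those flanking gaps. Others were named after their values were seen. A methyltransferase that matched the wording for ribosomal proteins was left out. Repeats are 50-mers found more than once in the genome on either strand. The members and lists were chosen with earlier results of these data known. Python 3.11.15, numpy 2.4.6, pandas 2.3.3 and scipy 1.17.1 were used, and the gene coverage step was tested on simulated data. There is no replicate, so nothing was tested, and depth is unknown. Alternatives were other limits on score, width, list length, merging, bins, gene limits and the edge of the stretch.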

Additional observations from a re-analysis of the deposited data

How the results depend on the processing

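The excess of covered bp in abp1Δ over wild type was positive under every alternative run. From 6617 bp it moved to 6737 bp with the upper 50% of each list by score, 6686 bp with lists of equal length, 6908 bp with intervals of at least 10 bp, 5214 bp with pieces up to 100 bp apart merged and 7438 bp with a further 50 kb left out on each side of the stretch. Raising the lowest abp1Δ score to 226, so that its covered length on chromosomes I and II no longer exceeded that of wild type, gave 5386 bp, an excess of 16.1%. Bins with more covered bp in abp1Δ were 10 with 200 kb bins, and with 50 kb bins 19 had more and 13 fewer. Genes with a loss numbered 14 at a limit of 50 bp and 4 at 200 bp, by construction of the limit, and genes with a gain 28 and 17. The share of wild-type covered bp also covered in abp1Δ was 86.0% with merging, 86.0% with that score limit and 90.9% with the wider edge, which leaves out bfr1. The gap around the centromere in abp1Δ was 124250 bp with the upper 50%, 124375 bp with intervals of at least 10 bp and 243265 bp with that score limit, where mam301 lost its interval; in wild type it stayed at 140557 bp. No paired analysis was possible because each genotype has 1 list. Depth is unknown, and its part in these differences was not tested.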
